A study of Homo sapiens with 4 samples.

Results

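Metallothionein transcripts were followed in 2 human triple-negative breast cancer (TNBC) cell lines treated with mebendazole (MBZ), an anthelmintic that binds tubulin. The genes described are 9 of the 58735 genes of the count table, chosen by symbol: the metallothioneins MT2A, MT1E, MT1X, MT1F, MT1A, MT1G and MT1M, the transcription factor gene MTF1 and the zinc exporter gene SLC30A1. MDA-MB-231 and SUM159 cells received 1 μM MBZ or the solvent DMSO for 72 h, and mRNA of each of the 4 conditions was sequenced as 1 library. MDA-MB-231 cells came from ATCC and SUM159 cells from another laboratory. Of the culture media the methods give, that of SUM159 had a different base medium and less serum. It also held insulin and the glucocorticoid hydrocortisone, so that line and medium cannot be told apart. The MDA-MB-231 libraries held 24897586 counts (DMSO) and 17143139 counts (MBZ), and the SUM159 libraries 18708179 (DMSO) and 18904501 (MBZ). With 1 library per condition, no difference within a line has a replicate check and none has a p-value. Intervals are 95% intervals on the reads of the libraries (Poisson for a level, Clopper-Pearson for a change or a share). They cover counting error only and not the spread between cultures. They also treat each read as independent, which amplified reads are not, so they may be too narrow.

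Metallothioneins are small, cysteine-rich proteins that bind zinc and copper in the cytoplasm and also sequester cadmium. Free zinc is sensed by MTF1, which enters the nucleus and binds short metal response elements in the promoters of metallothionein genes and of SLC30A1, whose product carries zinc out of the cell. Glucocorticoids and oxidative stress are further known inducers, and MT2A is commonly the most abundant family member in breast epithelial and breast cancer cells.

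Of the markers of the lines, PGR had 0 reads in all 4 libraries, and ESR1 had 1 and 0 reads in MDA-MB-231 and 2 and 18 in SUM159 cells, with DMSO and MBZ in that order. ERBB2 transcripts were present, at 87.9 and 72.0 CPM (counts per megaread after TMM normalization within a line) in MDA-MB-231 and 108 and 57.9 CPM in SUM159 cells. VIM, which encodes the mesenchymal filament protein vimentin, was at 2081 and 1101 CPM in MDA-MB-231 and 3228 and 1988 CPM in SUM159 cells. CD44 and EGFR were present in every library, the lowest values being 396 CPM and 168 CPM. At the 1.5-fold limit used below, 1 of these 3 mesenchymal markers was higher with MBZ (EGFR) and 1 lower (VIM) in MDA-MB-231, and 0 were higher and 1 lower (VIM) in SUM159. The call of EGFR ended with DESeq2's size factors, and that of VIM in SUM159 with scaling by total counts. Of the receptors, the 1 with enough reads in MDA-MB-231 (ERBB2) was within the limit, and of the 2 in SUM159, ESR1 was higher and ERBB2 lower. ESR1 had enough reads there only through the MBZ library, so its call could not have been lower (interval 0.79 to 6.01 on the log2 scale). Over all genes, 18.3% were called higher and 15.8% lower in MDA-MB-231, and 21.5% and 21.7% in SUM159.

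MT2A (ENSG00000125148) is the gene of the major metallothionein isoform and lies on the plus strand of chromosome 16 (chr16:56608584-56609497, GRCh38), with 3 exons in its canonical transcript. It had 22925 reads in MDA-MB-231 with DMSO and 14537 with MBZ, or 1009.7 CPM (997 to 1023) and 773 CPM (761 to 786). In SUM159 cells it had 3787 reads with DMSO and 22869 with MBZ, or 225 CPM (218 to 232) and 1089.8 CPM (1076 to 1104). SUM159 cells with DMSO thus had the lowest MT2A level of the 4 libraries and SUM159 cells with MBZ the highest, and no intervals overlapped. MT2A was 4.85-fold higher with MBZ in SUM159 cells (log2 fold change 2.28, interval 2.23 to 2.33). In MDA-MB-231 MT2A was 1.31-fold lower with MBZ (log2 fold change -0.38, interval -0.41 to -0.35; -0.12 with scaling by total counts), below the 1.5-fold used here to call a gene higher or lower. In bulk RNA, fewer cells expressing a gene and less of its RNA per cell cannot be told apart.

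The 250 bases before the start sites of MT2A and MT1X, the 2 members whose values with MBZ lay on opposite sides of 0 in the lines beyond counting error, are shown because members of the family moved together in SUM159 cells. They come from the RefSeq promoter table on GRCh38.p14, which matched 4 of the 9 genes (MT2A, MT1X, MTF1 and SLC30A1) and not MT1A, MT1E, MT1F, MT1G and MT1M. Capitals mark the metal response element core, TGCACNC or TGCGCNC on either strand, and both sequences are written 5′ to 3′ on the plus strand, MT2A at chr16:56608334-56608583 and MT1X at chr16:56682220-56682469.
MT2A: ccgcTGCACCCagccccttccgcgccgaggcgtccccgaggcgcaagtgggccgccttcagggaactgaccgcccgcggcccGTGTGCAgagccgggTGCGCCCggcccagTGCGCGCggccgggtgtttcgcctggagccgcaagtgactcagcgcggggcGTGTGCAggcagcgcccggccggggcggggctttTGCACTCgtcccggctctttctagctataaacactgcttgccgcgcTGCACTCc
MT1X: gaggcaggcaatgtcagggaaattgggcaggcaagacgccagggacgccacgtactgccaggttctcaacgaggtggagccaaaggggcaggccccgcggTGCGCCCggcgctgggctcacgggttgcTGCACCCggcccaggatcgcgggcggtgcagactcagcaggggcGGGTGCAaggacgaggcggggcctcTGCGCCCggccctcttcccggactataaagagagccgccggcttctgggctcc

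The core was found 7 times before MT2A and 4 times before MT1X. Of the metallothioneins outside the 9 genes, MT1H had 8 cores and MT1B 3, and both genes had 0 reads in all 4 libraries. Of 34943 promoters of the same length in the table, 24.8% had at least 1 core, 0.369% had at least 4 and 0.0315% had at least 7. The SLC30A1 promoter held 1 core, from 49 to 43 bases before the start, and that of MTF1 held 0. A TATA box (TATAAA, found in 10.8% of promoters on either strand) began 29 bases before the MT2A start and 30 bases before the MT1X start. The antioxidant response element core TGACNNNGC, present in 10.9% of promoters, was found once each before MT2A, MT1X and SLC30A1, and the MT2A match also contains TGACTCA, the letters of an AP-1 site. None of the matches overlapped another. These are matches of letters, and binding was not measured.

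**Figure D1:**
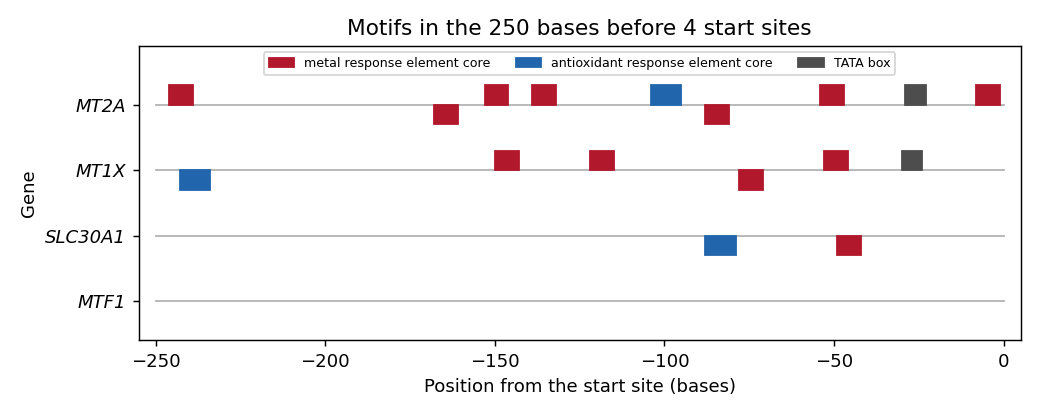
Positions of the metal response element core, the antioxidant response element core and the TATA box in the 250 bases before the start sites of MT2A, MT1X, SLC30A1 and MTF1, in bases from the start, with plus-orientation matches above each line and minus-orientation matches below it. MT2A carried 7 metal response element cores, MT1X 4, SLC30A1 1 and MTF1 0.

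MT1E (ENSG00000169715, chr16:56625475-56627112) was the next most read metallothionein, with 2890 and 2415 reads in MDA-MB-231 with DMSO and MBZ, or 127 CPM (123 to 132) and 128 CPM (123 to 134). In SUM159 cells it had 229 and 694 reads, or 13.6 CPM (11.9 to 15.5) and 33.1 CPM (30.7 to 35.6). MT1E was therefore about level in MDA-MB-231, at 0.01 on the log2 scale (interval -0.07 to 0.09; -0.04 with DESeq2's size factors and 0.28 with scaling by total counts), and 2.43-fold higher with MBZ in SUM159 cells (log2 fold change 1.28, interval 1.07 to 1.51). Its level in SUM159 cells with MBZ was still below both MDA-MB-231 libraries.

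MT1X (ENSG00000187193, chr16:56682470-56684196), the member at the far end of the gene cluster, had 326 and 172 reads in MDA-MB-231, or 14.4 CPM (12.8 to 16.004) and 9.15 CPM (7.83 to 10.6). In SUM159 cells it had 188 and 577 reads, or 11.2 CPM (9.62 to 12.9) and 27.5 CPM (25.3 to 29.8). Like MT2A it was lower with MBZ in MDA-MB-231 and higher in SUM159 cells, but the DMSO libraries of the lines had overlapping intervals. MT1X was 1.57-fold lower in MDA-MB-231 (log2 fold change -0.65, interval -0.92 to -0.38) and 2.46-fold higher in SUM159 cells (log2 fold change 1.30, interval 1.06 to 1.55). The interval in MDA-MB-231 spans the 1.5-fold limit, and with scaling by total counts the value was -0.38 and the gene was not called.

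MT1F (ENSG00000198417) had 117 and 90 reads in MDA-MB-231, or 5.15 CPM (4.26 to 6.18) and 4.79 CPM (3.85 to 5.88), and 27 and 63 reads in SUM159 cells, or 1.60 CPM (1.06 to 2.33) and 3.002 CPM (2.31 to 3.84). It was 1.87-fold higher with MBZ in SUM159 cells (log2 fold change 0.90), with an interval of 0.23 to 1.61 that spans the 1.5-fold limit. In MDA-MB-231 its log2 fold change of -0.11 (interval -0.52 to 0.30) could not be told from 0 at this depth, and its sign turned to 0.16 with scaling by total counts. MT1A (ENSG00000205362) was read in MDA-MB-231 alone, with 70 reads with DMSO and 76 with MBZ, or 3.08 CPM (2.40 to 3.90) and 4.04 CPM (3.19 to 5.06). Its 0 reads in SUM159 cells allow up to 0.178 CPM with DMSO and 0.143 CPM with MBZ (3 reads). For MT1A in MDA-MB-231 the value of 0.39 on the log2 scale (interval -0.10 to 0.88) was within counting error, and with scaling by total counts it was 0.66. MT1G and MT1M had 0 reads in all 4 libraries, which allows between 0.132 and 0.178 CPM depending on the library.

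**Figure D2:**
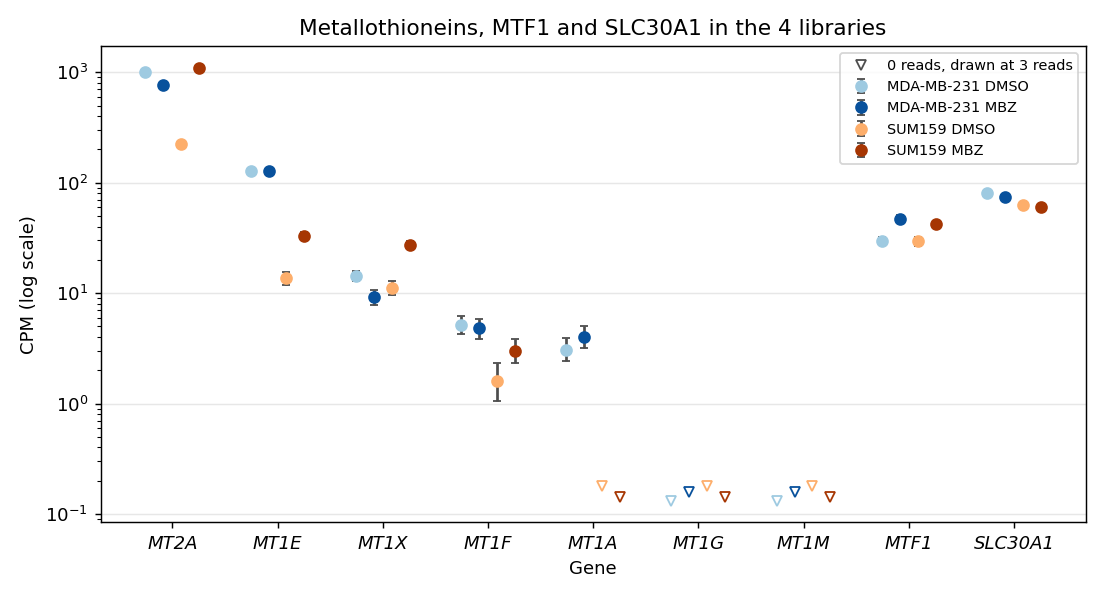
CPM on a log scale of the 9 genes in the 4 libraries, as points with 95% Poisson intervals, open triangles standing for 0 reads drawn at the level of 3 reads. MT2A ran from 225 CPM in SUM159 cells with DMSO to 1089.8 CPM in SUM159 cells with MBZ, and MT1A was read in MDA-MB-231 alone.

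A gene was compared in a line where its 2 libraries averaged 10 or more counts. In SUM159 cells, 6 of the 9 genes were compared, and 4 of them (MT2A, MT1E, MT1X and MT1F) were at least 1.5-fold higher with MBZ, where 21.5% of 15674 genes were higher. None of the 6 was at least 1.5-fold lower in that line, against 21.7% of all genes. In MDA-MB-231, 7 of the 9 were compared. Here MTF1 was the 1 gene called higher, where 18.3% of 15142 genes were, and MT1X the 1 gene called lower, where 15.8% were. Each of the 4 metallothioneins compared in SUM159 cells was higher, while in MDA-MB-231 0 of 5 were called higher and 1 of 5 lower. The 4 calls in SUM159 cells held under each scaling tried, and scaling by total counts, which raised the all-gene median on the log2 scale by 0.27 (MDA-MB-231) and 0.30 (SUM159), added MTF1 there. In MDA-MB-231 the same scaling ended the call of MT1X and added MT1A to the higher genes.

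**Figure D3:**
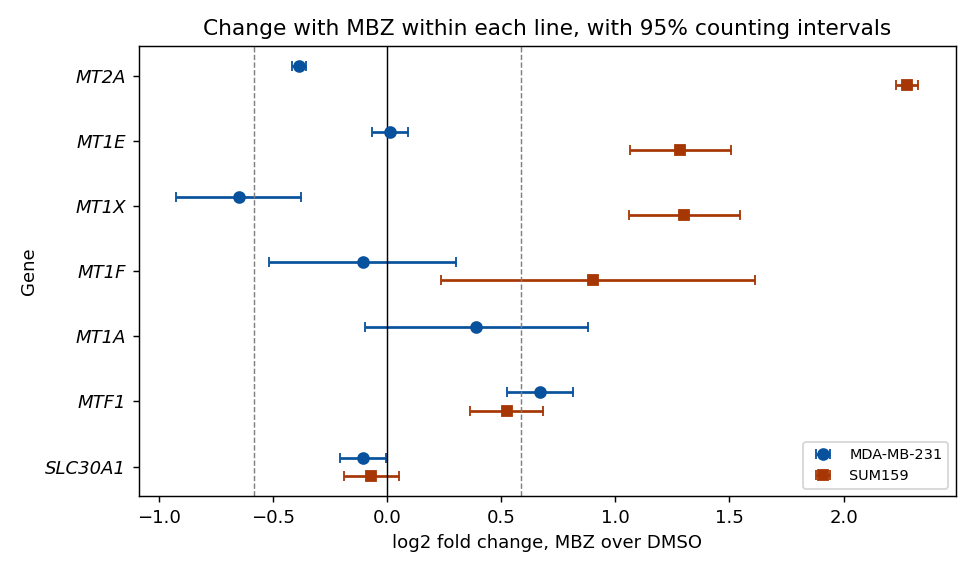
log2 fold changes of MBZ over DMSO in MDA-MB-231 (circles) and SUM159 cells (squares) with 95% Clopper-Pearson counting intervals, dashed lines marking 1.5-fold. MT2A was at -0.38 and 2.28 and MT1X at -0.65 and 1.30, while SLC30A1 was near 0 in both lines. With scaling by total counts SLC30A1 and, in MDA-MB-231, MT1F turned positive.

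MTF1 (ENSG00000188786, chr1:37809574-37859592, minus strand), the zinc-sensing regulator, had 676 and 890 reads in MDA-MB-231, or 29.8 CPM (27.6 to 32.1) and 47.3 CPM (44.3 to 50.6). In SUM159 cells it had 495 and 886 reads, or 29.4 CPM (26.8 to 32.1) and 42.2 CPM (39.5 to 45.1). The DMSO levels of the lines overlapped, and both MBZ levels lay above them. MTF1 was 1.59-fold higher in MDA-MB-231 (log2 fold change 0.67, interval 0.52 to 0.82) and 1.44-fold higher in SUM159 cells (0.52, interval 0.36 to 0.69), the latter under the 1.5-fold limit. MTF1 was thus called in MDA-MB-231 alone, although with scaling by total counts it was called in SUM159 too. The difference between the lines was not tested.

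SLC30A1 (ENSG00000170385, chr1:211571568-211579161, minus strand), the exporter that is itself a target of MTF1, had 1827 and 1405 reads in MDA-MB-231, or 80.5 CPM (76.8 to 84.2) and 74.7 CPM (70.9 to 78.8). In SUM159 cells it had 1067 and 1267 reads, or 63.3 CPM (59.6 to 67.2) and 60.4 CPM (57.1 to 63.8). Its intervals with DMSO and MBZ overlapped in both lines. On the log2 scale MBZ over DMSO was -0.11 (interval -0.21 to -0.01) in the former line and -0.07 (interval -0.19 to 0.05) in the latter, and the values turned to 0.16 and 0.23 with scaling by total counts. SLC30A1 therefore did not share the size of the MT2A change in SUM159 cells under either scaling.

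Over all 7 metallothioneins, 26328 reads were counted in MDA-MB-231 with DMSO, which is 0.106% of the library (0.104% to 0.107%), and 17290 with MBZ, or 0.101% (0.0994% to 0.102%). In SUM159 cells the sum was 4231 reads with DMSO, or 0.0226% (0.0219% to 0.0233%), and 24203 with MBZ, or 0.128% (0.126% to 0.130%). The summed level after normalization was 1159.5 CPM and 919.8 CPM in MDA-MB-231 and 251 CPM and 1153 CPM in SUM159 cells. The sum was therefore at -0.33 on the log2 scale (interval -0.36 to -0.31) in the former line and at 2.20 (interval 2.15 to 2.25) in the latter. These sums follow MT2A, which held 87.1% of metallothionein reads in MDA-MB-231 with DMSO (interval 86.7% to 87.5%) and 84.1% with MBZ (83.5% to 84.6%). In SUM159 cells MT2A held 89.5% (88.5% to 90.4%) with DMSO and 94.5% (94.2% to 94.8%) with MBZ.

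The remaining reads were divided differently in the lines. MT1E took 11.0% of metallothionein reads in MDA-MB-231 with DMSO and 13.97% with MBZ, but 5.41% and 2.87% in SUM159 cells. MT1X took 1.24% and 0.995% in MDA-MB-231 and 4.44% and 2.38% in SUM159 cells. In SUM159 cells the shares of MT1E and MT1X were therefore lower with MBZ although their levels were higher, since MT2A was higher by a larger factor. MT1F stayed under 1% of the reads in every library, at most 0.638%.

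**Figure D4:**
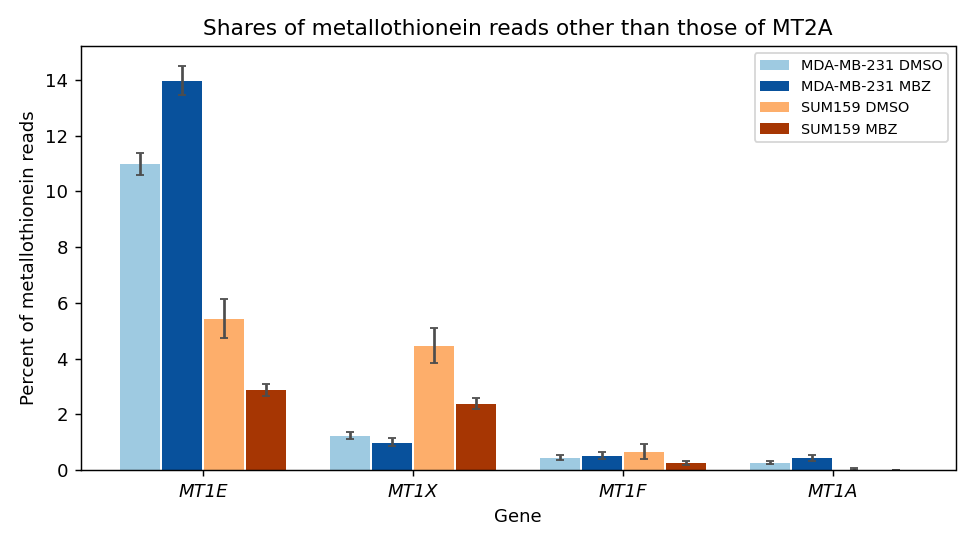
Percent of the reads of the 7 metallothioneins that came from MT1E, MT1X, MT1F and MT1A in each library, as bars with 95% Clopper-Pearson intervals. MT1E held 11.0% and 13.97% in MDA-MB-231 and 5.41% and 2.87% in SUM159 cells, and the rest of the reads not drawn belong to MT2A.

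Per kilobase of annotated exon (RPKM), the order in MDA-MB-231 with DMSO was MT2A at 1105 RPKM, MT1E at 121, SLC30A1 at 13.7, MT1X at 8.31, MT1A at 7.79, MTF1 at 3.73 and MT1F at 2.78. In SUM159 cells with DMSO it was MT2A at 246 RPKM, MT1E at 12.9, SLC30A1 at 10.7, MT1X at 6.46, MTF1 at 3.68 and MT1F at 0.865. The counting intervals of MT1X and MT1A in the former order and of MT1E and SLC30A1 in the latter overlapped on this scale. MT2A led in both lines, while the places below it depend on the length used. Per kilobase of the canonical mRNA, MT1X stood at 27.6 RPKM in SUM159 cells with DMSO, above MT1E at 18.2. The canonical transcript of MT1E has 2 exons, 746 bases and a coding sequence of 381 bases. That of MT1X has 3 exons, 404 bases and a coding sequence of 183 bases. The order of MT1X and MT1E therefore rests on the transcript annotated for MT1E. Among the 58207 genes with an annotated length, ranked per kilobase of exon within a library, MT2A was at ranks 24 (DMSO) and 21 (MBZ) in MDA-MB-231, and went from rank 144 with DMSO to rank 23 with MBZ in SUM159 cells. MT1E went from rank 333 to 239 in MDA-MB-231 and from 3310 to 1210 in SUM159 cells.

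Between the lines, levels were compared after TMM normalization over the 4 libraries, which moved no metallothionein CPM by more than 2.37%. With DMSO, SUM159 cells had 4.31-fold less MT2A than MDA-MB-231, 8.99-fold less MT1E and 3.09-fold less MT1F, whereas MT1X differed by 1.24-fold with overlapping intervals. With MBZ, SUM159 cells had 1.45-fold more MT2A and 3.09-fold more MT1X than MDA-MB-231, and 3.78-fold less MT1E and 1.55-fold less MT1F. The MT1F intervals with MBZ overlapped on this scale. After normalization within a line they did not, by a small margin, ending at 3.84 CPM in SUM159 cells and starting at 3.85 CPM in MDA-MB-231. The order of the lines was thus turned for MT2A and kept for MT1E. MTF1 and SLC30A1 differed between the lines by at most 1.22-fold with either treatment. Each of these differences compares 1 library with another.

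A treatment effect common to both lines was tested across 16100 genes with edgeR's quasi-likelihood test, with the lines taking the place of replicates. The test does not require the same direction in each line. The test called 1 gene (IL24, named here after its values were seen), or 0.00621% of those tested, at a Benjamini-Hochberg adjusted p under 0.05. An unadjusted p under 0.05 was reached by 1150 genes. DESeq2's Wald test, run on 32295 genes of which 17532 received no adjusted p, called 100. Of the 9 genes, 7 passed the filter on low counts, MT1A through MDA-MB-231 alone. None of the 7 was called by edgeR's quasi-likelihood test or by DESeq2, and 0 of them had an unadjusted p under 0.05 in the former. With all genes that had a read, the same edgeR test called 298 genes and again none of the 7, and there MT2A had an unadjusted p of 0.0199 and an adjusted p of 0.538 (shared log2 fold change 0.95, higher in 1 of 2 lines). MTF1 had the smallest adjusted p of the 7, 0.701 in edgeR's quasi-likelihood test, with a shared log2 fold change of 0.64 (standard error 0.28), higher in 2 of 2 lines, and over the 4 alternatives its adjusted p ranged from 0.669 to 1.00. For MT2A the shared log2 fold change was 0.98 (standard error 0.70, adjusted p = 0.803 in the same edgeR test), higher in 1 of 2 lines, and the adjusted p ranged from 0.538 to 1.00. The difference in response between the lines could not be tested.

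The family is compact, and the way reads were counted bears on its values. On chromosome 16, 16 metallothionein genes and pseudogenes of the count table lie within 119.1 kb (chr16:56565073-56684196), all on the plus strand except MT1G. Coding sequences of equal length were 92.35% identical between MT2A and MT1X (14 of 183 bases differing), 92.35% between MT2A and MT1A and 88.5% between MT1F and MT1X. Reads were 150 bases long. Every 150-base and 100-base window of the canonical mRNAs of the 7 metallothioneins was absent, letter for letter, from the annotated transcripts of genes elsewhere, while of the 50-base windows 88.9% were unique for MT2A, 89.7% for MT1E, 82.0% for MT1X and 80.1% for MT1G. Levels of these near-identical genes are uncertain where reads aligned over shorter stretches. MT1X also shares 165 of the 404 bases of its canonical mRNA (40.8%) with the lncRNA ENSG00000259827 on the same strand, and reads there are ambiguous in HTSeq's union mode. ENSG00000259827 had 0 reads in all 4 libraries, and the level of MT1X is uncertain by what that stretch would have added.

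The other 14 metallothionein genes and pseudogenes were nearly silent. 9 of them, among them MT1B, MT1H, MT3 and MT4, had 0 reads in all 4 libraries, and no count of the other 5 exceeded 4 reads. Together the 14 took 3 to 6 reads per library beside 4231 to 26328 for the members. Some protein-coding genes near the cluster were taken by position after the members' values were seen. Before the cluster, the log2 fold changes of NUDT21 and OGFOD1 were -0.26 and 0.07 in MDA-MB-231 and -0.27 and 0.34 in SUM159 cells, with NUDT21 at 0.00 and 0.03 with scaling by total counts. After it, NUP93 was at -0.53 (interval -0.65 to -0.41) and 0.73 (interval 0.62 to 0.84), with the signs of MT2A in both lines and past 1.5-fold in SUM159. HERPUD1 was at 1.55 and -0.02 (0.29 in SUM159 cells with scaling by total counts), and SLC12A3 had at most 2 reads.

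Genes of zinc transport, copper handling and other inducible responses were compared by the same rule, and over all genes the median on the log2 scale was -0.02 for MDA-MB-231 and -0.03 for SUM159. Since scaling by total counts shifts nearly all values alike, it turns the negative medians of the transport, copper and glucocorticoid lists in SUM159 cells, all nearer 0 than the shift, positive. Of the 9 other exporters of the SLC30 family, 7 were compared in MDA-MB-231, with 2 higher, 1 lower and a median log2 fold change of 0.35, and 6 in SUM159 cells, with 0 higher, 1 lower and a median of -0.29. With scaling by total counts 4 exporters were higher and 0 lower in the former line, and in the latter 0 were higher and 0 lower. SLC30A4, a vesicular zinc transporter, was at 0.64 in MDA-MB-231 and -0.88 in SUM159 cells. Of the 14 importers of the SLC39 family, 11 were compared in each line. In MDA-MB-231 1 importer was higher and 1 lower, with a median of 0.01, and in SUM159 0 were higher and 1 lower, with a median of -0.22, whereas with scaling by total counts each line had 2 higher and 0 lower. SLC39A14, a plasma membrane importer of zinc and iron, went from 104 to 195 CPM in MDA-MB-231 (log2 fold change 0.92) and from 148 to 125 CPM in SUM159 cells (-0.24, or 0.06 with scaling by total counts). SLC39A10, another importer, was at -0.28 and -0.51.

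Of 10 genes of copper transport and chaperones, 9 were compared in each line, with 1 higher and 0 lower in MDA-MB-231 (median 0.13) and 2 higher and 1 lower in SUM159 cells (median -0.06; 3 higher and 0 lower with scaling by total counts). COX17, the copper chaperone of cytochrome oxidase, was at 0.13 in MDA-MB-231 and 1.06 in SUM159 cells. ATP7A, a copper exporting ATPase, was at 0.19 and -0.83. SLC31A2, a copper transporter gene of the same list, was called higher in both lines, at 1.31 (interval 0.46 to 2.21) and 0.85, the latter from 12 and 27 reads with an interval that spans 0 (-0.18 to 1.97).

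Among 8 other genes known to be raised by heavy metals, MDA-MB-231 had 5 higher and 0 lower, with a median of 0.89, and SUM159 had 2 higher and 3 lower, with a median of 0.04 (4 higher and 1 lower there with scaling by total counts). Over all genes compared, 18.3% were higher and 15.8% lower in the former line, and 21.5% and 21.7% in the latter. HMOX1, the gene of heme oxygenase, went from 16.96 to 41.5 CPM in MDA-MB-231 and from 194 to 483 CPM in SUM159 cells, log2 fold changes of 1.29 and 1.31. TXNRD1, a thioredoxin reductase gene, was at 0.85 in MDA-MB-231 and -1.03 in SUM159 cells. The cystine transporter gene SLC7A11 was at 1.40 and 0.44. HSPA1A and HSPA1B, near-identical chaperone genes whose reads may be shared, were at 0.09 and 0.17 in MDA-MB-231 and -0.66 and -0.69 in SUM159 cells.

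Of the glucocorticoid receptor gene and 10 of its targets, all compared in both lines, MDA-MB-231 had 5 higher and 2 lower (median 0.48) and SUM159 had 3 higher and 4 lower (median -0.26). With scaling by total counts these were 7 higher and 0 lower in the former line and 5 higher and 2 lower in the latter. DUSP1 was at 2.08 and 1.72 and SGK1 at 1.30 and 1.54, higher in both lines. ANGPTL4 was called lower in MDA-MB-231 (-0.83, a call that ended at -0.57 with scaling by total counts) and higher in SUM159 (2.63, from 6 and 47 reads), and CEBPD was at -1.39 in SUM159. FKBP5, a chaperone gene widely used as a glucocorticoid readout, was lower in both, at -0.79 and -0.95. TSC22D3 was at 0.48 and -0.80, and NR3C1, the receptor gene itself, at 0.71 and -0.43. In the shared test, 0 genes of any of these lists were called.

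**Figure D5:**
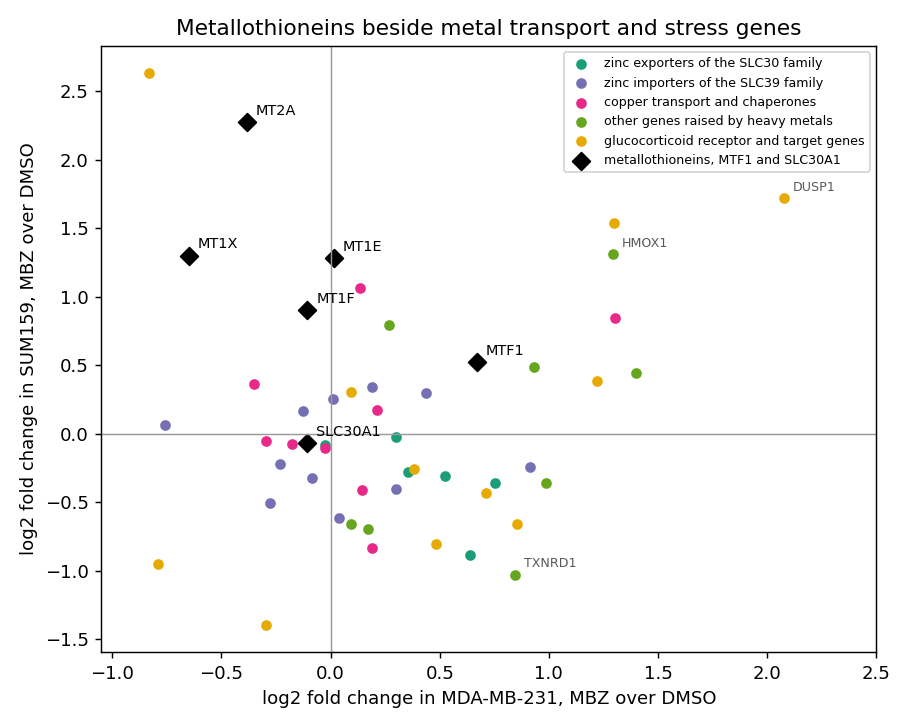
log2 fold changes of MBZ over DMSO in MDA-MB-231 (horizontal) and SUM159 cells (vertical) for genes compared in both lines: the 6 members as diamonds and 5 lists of metal transport and inducible genes as circles. MT2A (-0.38 and 2.28) and MT1X (-0.65 and 1.30) lie in the upper left, HMOX1 (1.29 and 1.31) in the upper right and TXNRD1 (0.85 and -1.03) in the lower right. With scaling by total counts all points shift up and to the right, by 0.30 and 0.27 for the all-gene median.

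The genes most like MT2A and MT1X over the 4 libraries were sought among 11152 genes averaging 100 or more counts, by Euclidean distance in centred log2 CPM. Nearest to MT2A were SKA1, a kinetochore gene, at a distance of 0.20, the origin recognition gene ORC6 at 0.26 and the acylphosphatase gene ACYP1 at 0.28. SKA1 was at -0.25 in MDA-MB-231 and 2.54 in SUM159 cells, and with scaling by total counts the former was 0.01. ORC6 went from 32.9 to 23.8 CPM in MDA-MB-231 and from 7.54 to 42.8 CPM in SUM159 cells, and the log2 fold changes of ACYP1 were -0.62 and 2.08. Nearest to MT1X were the RNA exonuclease gene REXO5 at a distance of 0.14, a gene without a symbol, ENSG00000216775, at 0.15, and the kinase gene PASK at 0.29. PASK was at -0.95 and 1.58. A short distance over 4 libraries is a description.

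Values of other genes and of the libraries are given beside those of the metallothioneins, and their part in the result was not tested. The proliferation marker MKI67, chosen after its values were known, stood at 717 and 317 CPM in MDA-MB-231 and 52.5 and 276 CPM in SUM159 cells, so that SUM159 cells with DMSO were lowest for MKI67 as for MT2A. TOP2A, chosen likewise, stood at 551 and 273 CPM and at 60.5 and 147 CPM. The 50 most abundant genes took 14.8% and 12.3% of reads in MDA-MB-231 and 20.4% and 15.8% in SUM159 cells. Reads of mitochondrial genes made up 2.68% and 2.75% in MDA-MB-231 and 4.04% and 4.10% in SUM159 cells.

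Of 5 markers of leukocytes and endothelial cells, 3 were compared in each line, with 2 higher and 0 lower in MDA-MB-231 and 0 higher and 1 lower in SUM159 cells. The shares over all genes were 18.3% higher and 15.8% lower in the former line, and 21.5% and 21.7% in the latter. The 2 higher markers were PTPRC (8 and 23 reads, interval 0.58 to 3.17) and VWF (10 and 19 reads, interval 0.02 to 2.47). With a minimum of 100 counts on average, 0 markers were called higher in MDA-MB-231. The summed level of the 5 markers was 16.9 and 19.7 CPM in MDA-MB-231 and 52.9 and 43.2 CPM in SUM159 cells. Most of it came from PECAM1 at 16.1, 17.4, 38.9 and 39.3 CPM. The leukocyte gene PTPRC was at 0.352 and 1.22 CPM in MDA-MB-231 and 12.8 and 2.86 CPM in SUM159 cells, and the T cell marker CD3E had at most 1 read in any library.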

How the data were processed

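RNA of the 4 cultures was enriched for mRNA and sequenced as 150-base paired reads. Per the submitters' processing notes and the paper's methods, the authors mapped reads to GRCh38 with STAR 2.5 and counted them per gene with HTSeq 0.6.1 in union mode, and they deposited whole-number counts without normalization. The annotation release and the strand setting are not given in the sources used here. Ensembl identifiers gave a symbol for 58207 of 58735 genes. Positions, lengths and overlaps come from GENCODE release 44.

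Fold changes are differences of log2 CPM computed with R 4.3.3 and edgeR 4.0.16 (TMM within the 2 libraries of a line, prior count 0.125). A gene was called at 1.5-fold where both libraries of a line averaged 10 or more counts. The shared test was edgeR's quasi-likelihood test with cell line and treatment as terms, after filterByExpr. DESeq2 1.42.0 was an alternative. The functions were tested on simulated counts. Intervals cover counting error only, and they may be too narrow because amplified reads are not independent molecules.

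The members and the lists were chosen with earlier results of these data known. The genes named are the members, all other metallothionein genes and pseudogenes, the listed genes, for MT2A and MT1X the 3 likest genes, and, chosen after values were seen, genes near the cluster, MKI67, TOP2A, IL24 and the lncRNA ENSG00000259827. Alternatives were TMM over the 4 libraries, DESeq2's size factors, total counts, a prior count of 2, other count minimums, a fold of 2 and totals without metallothionein reads. For the shared test they were a model without cell line, DESeq2's Wald test, RLE normalization and a fit of all genes with a read.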

Additional observations from a re-analysis of the deposited data

Results flagged for a closer look

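Among the 6 members compared in both lines, 2 differed in the direction of the change with MBZ, with counting intervals on opposite sides of 0. For MT2A, the log2 fold change in SUM159 cells exceeded that in MDA-MB-231 by 2.66. For MT1X, the same difference was 1.95. Both pairs of intervals stayed on opposite sides of 0 in each of the 6 scalings and prior counts computed. The difference between the lines was not tested, because a treatment has 1 library in each line. Genes outside the members also had intervals on opposite sides of 0, among them MKI67 (-1.18 and 2.40, MDA-MB-231 first) and NUP93 (-0.53 and 0.73). TXNRD1 did so in the other direction (0.85 and -1.03). The share of such genes over all genes was not computed, so the split is not read as particular to the members.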

How the results depend on the processing

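With scaling by total counts, the members called in MDA-MB-231 became 2 higher and 0 lower, and all genes called were 4408 higher and 1146 lower, against 5135 and 2004 in SUM159 cells. Of called genes, 79.4% were then higher in MDA-MB-231 and 71.9% in SUM159 cells, compared with 53.7% and 49.8%. At a fold change of 2, the members called in MDA-MB-231 were 0 higher and 0 lower, and all genes called were 1370 and 779 there, and 1996 and 1676 in SUM159 cells. The members called higher in SUM159 were then 3, without MT1F, and likewise where 100 counts on average were required. When all genes with a read were admitted, MDA-MB-231 had 9089 higher and 5693 lower, and SUM159 had 11750 and 6844. With that minimum of 100, 1114 genes were higher and 1676 lower in the former line, and 1422 and 2250 in the latter. The share of higher genes among those called was then 39.9% and 38.7%, against 61.5% and 63.2% with all genes admitted. The cause of these differences was not tested.

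Genes called by the shared test numbered 298 when all genes with a read were tested and 0 in the model without cell line. DESeq2's Wald test called 100 (17532 genes without an adjusted p not counted). The cause of these differences was not tested. The shared test with cell line as a term compares treatments within lines.

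Under another scaling, log2 fold changes of single members left their counting interval in 10 cases, 9 of them with total counts and 1 with DESeq2's size factors. 0 of the called changes turned sign, and the 28 shared log2 fold changes kept theirs without passing the threshold. Low depth limits MT1F and MT1A most.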
